A study of Mus musculus with 6 samples.

Results

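Genes of redox defence and of the NRF2 pathway were followed in mouse intestinal organoids, small epithelial structures grown in culture. The set holds 40 genes, listed by name for their role, with earlier results of these data known, and all 40 were found once each among the 52249 genes of the deposited table. Apc, a tumour suppressor that keeps WNT signalling low, was knocked out in all 6 libraries. The control group held 3 libraries with the Apc knockout alone, and the other 3 were labelled as also overexpressing IGF2BP3 (IGF2BP3 OE), an RNA-binding protein that binds and stabilises mRNAs; the latter are called OE-labelled here. The labels give no age, sex, Apc allele, expression construct, clone number or culture of origin, and libraries with intact Apc were not analysed here. Expression was measured by 3′ mRNA sequencing, which counts reads near the end of a transcript, and is given as CPM, the count scaled to a common library size, after TMM scaling, a correction for differences in library composition. CPM is not divided by transcript length, since 3′ reads come from near the end of each transcript. Fold changes may still vary with length, and fits with an offset for exonic length are given below. Differences are log2 fold changes of OE-labelled over control from edgeR's quasi-likelihood test, with Benjamini-Hochberg adjusted p-values over the 10687 genes tested, and a gene is said to have risen or fallen where its adjusted p was below 0.05.

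Cells keep oxidants in check through a few linked systems. NRF2, the product of Nfe2l2, is a transcription factor that KEAP1 holds at low levels by directing it to degradation, and oxidants or electrophiles release it to switch on antioxidant genes through antioxidant response elements. Glutathione and thioredoxin are the main carriers of reducing power, peroxiredoxins, glutathione peroxidases and catalase use up peroxides, superoxide dismutases remove superoxide, and NADPH from the pentose phosphate pathway and related enzymes recharges the carriers. In the intestine these systems face oxidants from food, microbes and rapid cell division.

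The libraries held 2180116 to 2519917 counts, so 3 counts corresponded to 1.18 to 1.41 CPM. Igf2bp3 was counted once in 1 library of each group and at 0 in the others, below that floor, and Apc had 164 to 182 counts in control and 148 to 158 in OE-labelled libraries. The labels do not say whether the construct or the mutated allele alters the sequenced 3′ ends, so neither gene checks the labels. The library names place the control libraries in one series and the OE-labelled libraries in another, so library series and group cannot be told apart here. The labels do not say that the libraries came from separate cultures, and p-values then measure only the spread between these libraries. That spread was unequal, with a biological coefficient of variation of 3.1% among control and 17.2% among OE-labelled libraries. Of the 9 epithelial marker genes, Epcam and Cdh1 among them, all were counted in both groups. The summed level of the 7 goblet cell markers ran from 589.7 to 614.1 CPM in control and from 1273 to 1488 CPM in OE-labelled libraries. Spink4 made up most of that sum; 3 of the 7 rose (Spink4, Tff3 and Fcgbp), Muc2 and Clca1 did not pass, and Agr2 and Zg16 were too low to test. The 9 epithelial markers summed to 4766 to 5073 CPM and to 6172 to 6987 CPM; 5 rose, Krt8, Krt18 and Krt19 among them, Cldn7 fell by 1.09 on the log2 scale (edgeR adjusted p = 0.000177), and Epcam (0.08), Cdh1 (-0.12) and Cdx2 (0.37) did not pass. The 6 Paneth cell markers summed to 31.3 to 34.6 CPM and to 57.9 to 86.5 CPM, nearly all from Mmp7, with Lyz1, Ang4, Defa24 and Defa30 at 0 in every library. The 7 immune markers summed to 41.3 to 50.7 CPM and to 58.8 to 75.8 CPM, nearly all from Csf1r and Cd68, with Cd3e, Lyz2 and Tyrobp among those at 0. The part of these shifts in the results below was not tested. A change in the number of cells of a type cannot be told apart from a change in RNA per cell. Markers of enterocytes, fibroblasts, endothelium and red blood cells summed to at most 1.7 CPM in any library.

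Of the 40 genes, 13 rose and 4 fell in OE-labelled libraries, all 40 having passed the filter on low counts; together these were 42.5% of the set, where 29.2% of all tested genes changed. The members that rose were 32.5% of the set, where 16.5% of all tested genes rose, and those that fell were 10% of the set, where 12.7% of all tested genes fell. The median log2 fold change was 0.17 over the members and 0.041 over all tested genes. With the offset for exonic length these medians were 0.05 and 0.007, the lowest member median of any fit. The highest member median was 0.24, without control replicate 1 or without OE-labelled replicate 1, where all tested genes had medians of 0.047 and 0.009. The members had a median exonic length of 2995 bases, against 4519 over tested genes. The increases lay in peroxide and superoxide removal (Prdx1, Prdx2, Prdx6, Gpx2, Cat, Sod1), in the pentose phosphate pathway (G6pdx, Pgd, Taldo1) and in Keap1, Gss, Txn2 and Gstm1. The decreases were those of Gclc and Gclm, the subunits of the enzyme that starts glutathione synthesis, of Txnrd1, which recharges cytosolic thioredoxin, and of Prxl2a, a peroxiredoxin-like gene. The group ranges did not overlap for 25 members, and for 45.7% of all tested genes. OE-labelled libraries lay above control in 18 members, as in 25.3% of all tested genes, and below in 7, as in 20.5%.

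**Figure D1:**
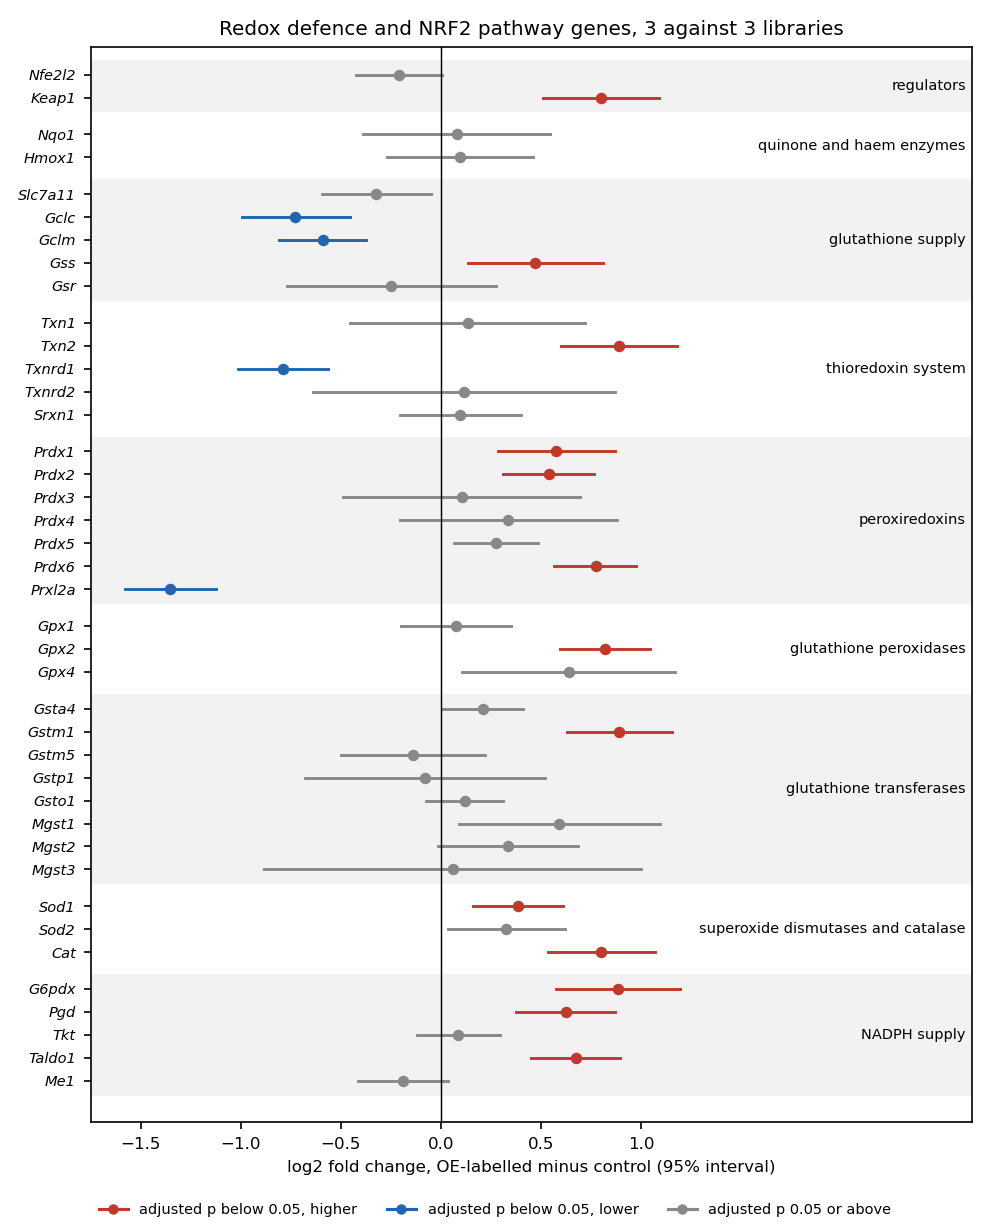
Log2 fold change of each of the 40 genes, OE-labelled minus control (3 libraries each), with its 95% interval from the edgeR fit, grouped by role. Red marks the 13 genes that rose and blue the 4 that fell at an adjusted p below 0.05; grey marks the 23 others, whose estimates ran from -0.32 to 0.64.

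The pathway's regulators were taken first. Keap1 (ENSMUSG00000003308, minus strand of chromosome 9, 21229730 to 21239361 in GRCm38), which encodes the protein that marks NRF2 for degradation, was counted at 121, 136 and 130 CPM in control replicates 1, 2 and 3 and at 271, 205 and 196 CPM in OE-labelled replicates 1, 2 and 3. Every OE-labelled library lay above every control library, with replicate 1 the highest. It rose by 0.80 log2 units (SE = 0.13; edgeR adjusted p = 0.00111). Keap1 has a GC content of 58%, against a median of 49.7% over tested genes, and with an offset for GC content it rose by 0.51 (edgeR adjusted p = 0.0119). The opposite strand holds 1 gene that overlaps Keap1, and the counting is not stated to use strand. Nfe2l2, which encodes NRF2 itself, was counted at 344, 365 and 396 CPM in control and at 323, 315 and 317 CPM in OE-labelled libraries. The ranges did not overlap, but the log2 fold change of -0.21 (95% interval -0.42 to 0.004) did not pass (edgeR adjusted p = 0.129). It passed without OE-labelled replicate 1 (-0.28, edgeR adjusted p = 0.0287) and with an offset for exonic length (-0.32, edgeR adjusted p = 0.0379), and was nearer to 0 under the GC offset (-0.14, edgeR adjusted p = 0.369). Nfe2l2 overlaps 1 gene on its own strand.

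Of 8 members picked by name as NRF2 targets (Nqo1, Hmox1, Gclc, Gclm, Slc7a11, Txnrd1, Srxn1 and Gpx2), 3 fell, 1 rose and 4 did not pass. Of all tested genes, 12.7% fell and 16.5% rose. The 8 were picked with earlier results of these data known and are not all the NRF2 targets of the set. In the whole set of 40 genes, 13 rose and 4 fell. Nqo1, a quinone reductase widely used as a readout of NRF2, was counted at 27.2, 29.6 and 25.3 CPM in control and at 19.4, 35.4 and 31.7 CPM in OE-labelled libraries. The OE-labelled libraries lay on both sides of the control values, and the log2 fold change was 0.08 (95% interval -0.39 to 0.54, edgeR adjusted p = 0.818). Hmox1, which breaks down haem, was counted at 42.4, 43.6 and 42.4 CPM and at 42.9, 37.4 and 57.1 CPM, again overlapping, with a log2 fold change of 0.09 (95% interval -0.27 to 0.46, edgeR adjusted p = 0.708). For both genes the interval covers changes of either sign.

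Genes of glutathione supply moved in opposite directions. Gclc (ENSMUSG00000032350, plus strand of chromosome 9, 77754535 to 77794485), the catalytic subunit of glutamate-cysteine ligase, the rate-limiting enzyme of glutathione synthesis, was counted at 919, 986 and 939.9 CPM in control and at 460.2, 595 and 665 CPM in OE-labelled libraries. Its highest OE-labelled value lay well under its lowest control value, and the log2 fold change was -0.73 with an SE of 0.13 (edgeR adjusted p = 0.00125). Gclm (ENSMUSG00000028124, plus strand of chromosome 3, 122245557 to 122270732), the modifier subunit of the same enzyme, was counted at 506, 500.1 and 537 CPM and at 373, 329.9 and 321 CPM. The groups did not overlap for Gclm either, and it fell by 0.59 on the log2 scale (with an SE of 0.10, edgeR adjusted p = 0.0012), or by 0.38 with the GC offset (edgeR adjusted p = 0.0287). Gclm overlaps 1 gene on each strand, and 9.9% of the 50-base words in the last 400 bases of its transcripts also occur in other genes, so its reads may be shared.

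Slc7a11, the cystine importer that feeds glutathione synthesis, was counted at 205, 209.7 and 219.8 CPM in control and at 140.2, 173 and 195 CPM in OE-labelled libraries. All OE-labelled values lay below control, but the log2 fold change of -0.32 (95% interval -0.60 to -0.05) did not pass (edgeR adjusted p = 0.07). Over 19 alternative fits it ran from -0.43 to -0.055 and passed in 5, among them the fit without OE-labelled replicate 3, the highest of its group (-0.43, edgeR adjusted p = 0.0116). The GC offset put it at -0.10 (edgeR adjusted p = 0.57), the exonic length offset at -0.055 (edgeR adjusted p = 0.779). Slc7a11 overlaps 2 genes on its own strand and 3 on the opposite strand. Gss, which adds glycine in the last step of synthesis, was counted at 53, 54 and 38.2 CPM and at 60.4, 73.9 and 66.8 CPM. Its groups did not overlap, and it rose by 0.47 (SE = 0.16; edgeR adjusted p = 0.0381). That call was lost with DESeq2's test (0.43, adjusted p = 0.124), with DESeq2's size factors (0.43, edgeR adjusted p = 0.0535) and with mitochondrial genes and the abundant ribosomal RNA gene CT010467.1 removed (0.41, edgeR adjusted p = 0.0636). It was also lost without any single control library (0.325 to 0.554, edgeR adjusted p from 0.064 to 0.183) and without OE-labelled replicate 2 (0.36, edgeR adjusted p = 0.156). Gss overlaps 3 genes on the opposite strand. Gsr, which recycles oxidised glutathione, was counted at 83.4, 80.2 and 86.6 CPM and at 39.3, 70.8 and 101 CPM, so that the OE-labelled libraries enclosed the control values. Its log2 fold change was -0.25 (edgeR adjusted p = 0.468), -0.59 without OE-labelled replicate 3 (edgeR adjusted p = 0.0331) and -0.017 without OE-labelled replicate 1 (edgeR adjusted p = 0.937). The 5 genes together summed to 1767 to 1829.6 CPM in control and to 1073 to 1348 CPM in OE-labelled libraries.

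The thioredoxin genes also split. Txnrd1 (ENSMUSG00000020250, plus strand of chromosome 10, 82833951 to 82897712), a selenoprotein that reduces cytosolic thioredoxin with NADPH, was counted at 277, 274 and 307 CPM in control and at 168, 156 and 173 CPM in OE-labelled libraries. The groups were far apart and each was tight, and Txnrd1 fell by 0.79 (SE = 0.11; edgeR adjusted p = 0.000324). It overlaps 1 gene on its own strand and 2 on the opposite strand. Txn2, the mitochondrial thioredoxin, was counted at 75.6, 94.3 and 84.8 CPM and at 179.9, 138 and 154 CPM, and rose by 0.89 (SE = 0.13; edgeR adjusted p = 0.00061). Txn1, the cytosolic thioredoxin, was counted at 367, 350.4 and 358 CPM in control and at 184, 449.5 and 546 CPM in OE-labelled libraries. OE-labelled replicate 1 lay below every control library, while replicates 2 and 3 lay above them. Over all libraries the log2 fold change of Txn1 was 0.13 (95% interval -0.45 to 0.72, edgeR adjusted p = 0.748), and without OE-labelled replicate 1 it was 0.42 (edgeR adjusted p = 0.00218), against -0.18 without replicate 3 (edgeR adjusted p = 0.618). Srxn1, sulfiredoxin, which repairs overoxidised peroxiredoxins, was counted at 73.3, 57.2 and 71 CPM and at 66, 80.6 and 68.5 CPM with overlapping groups (log2 fold change 0.10, 95% interval -0.21 to 0.40, edgeR adjusted p = 0.644). Txnrd2, the mitochondrial reductase, rested on 7 to 16 counts per library and did not pass (log2 fold change 0.12, 95% interval -0.64 to 0.87, edgeR adjusted p = 0.833).

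**Figure D2:**
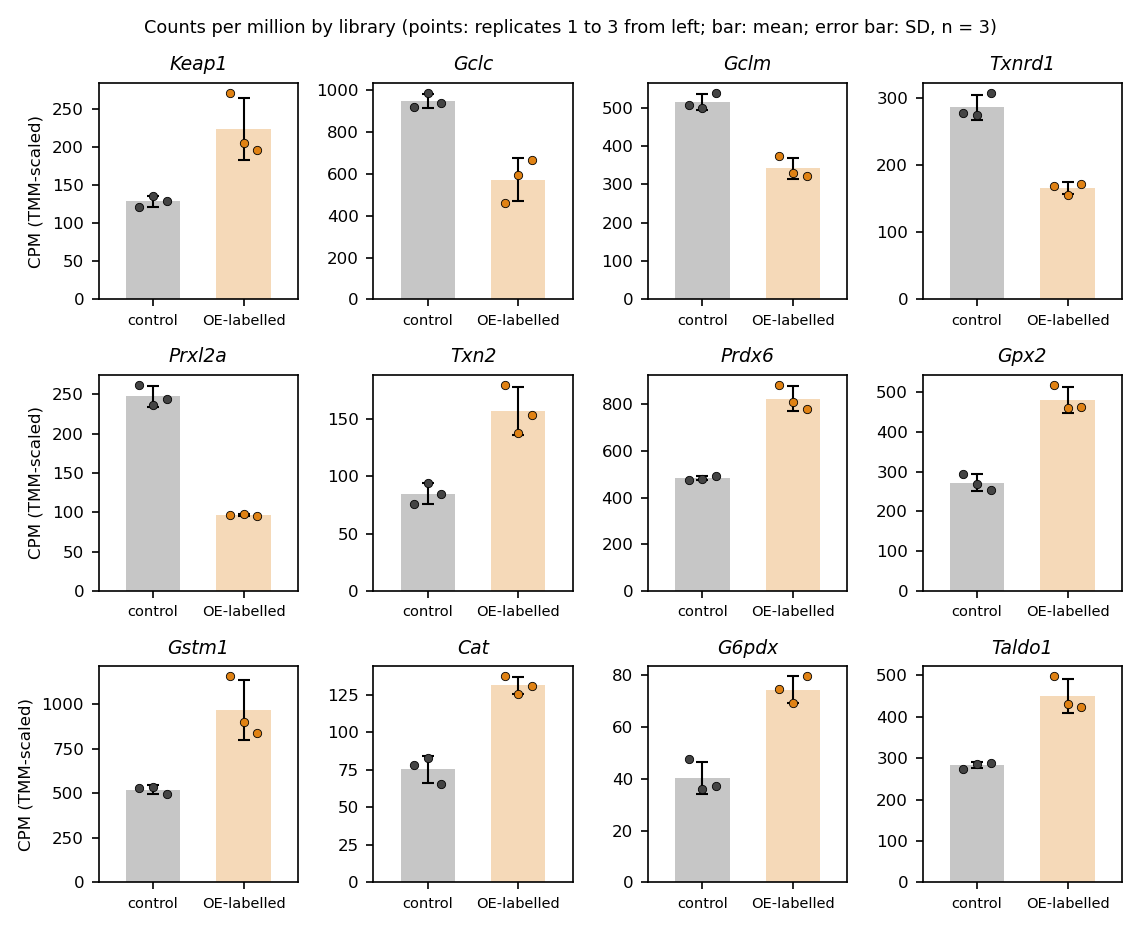
CPM in each library (points, replicates 1 to 3 from the left) for 12 of the 17 members that rose or fell, with the group mean (bar) and SD (error bar, n = 3), each panel with its own axis from 0. Gss, Prdx1, Prdx2, Sod1 and Pgd are not shown. All members that rose or fell had separate group ranges, as had 45.7% of all tested genes. In every panel the 3 OE-labelled libraries lie wholly above or wholly below the 3 control libraries; Gclc, Gclm, Txnrd1 and Prxl2a lie below.

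Peroxiredoxins, thiol enzymes that reduce hydrogen peroxide and that draw on thioredoxin or glutathione, were next. Of the 6 classical genes Prdx1 to Prdx6, 3 rose and 3 did not pass, where 16.5% of all tested genes rose. Prdx6, which uses glutathione and also acts on phospholipid peroxides, was counted at 477, 481 and 493 CPM in control and at 884, 812 and 780.0 CPM in OE-labelled libraries, and rose by 0.77 (SE = 0.09; edgeR adjusted p = 0.0002). Prdx2, a cytosolic enzyme, was counted at 192, 191 and 179 CPM and at 296, 263 and 258 CPM, and rose by 0.54 (SE = 0.11; edgeR adjusted p = 0.00268). Neither gene's groups overlapped. On the opposite strand Prdx2 overlaps 2 genes.

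Prdx1, the other main cytosolic enzyme, was counted at 975, 977 and 890.1 CPM in control and at 1505, 1647 and 1082 CPM in OE-labelled libraries. Its groups did not overlap, although OE-labelled replicate 3 stood nearer to control than the other two did. It rose by 0.58 (SE = 0.14; edgeR adjusted p = 0.00749), and the call was lost without OE-labelled replicate 2 (0.43, edgeR adjusted p = 0.0603) and without control replicate 3 (0.53, edgeR adjusted p = 0.0538). For Prdx1, 19.7% of the 50-base words near the 3′ end occur in other genes. Prdx5, found in several compartments, lay above control in all OE-labelled libraries but just missed the threshold (0.27, edgeR adjusted p = 0.0508); it passed in 4 of 19 other fits, among them the fit without OE-labelled replicate 3 (0.28, edgeR adjusted p = 0.034). Offsets for GC content and for exonic length left Prdx5 at 0.017 and 0.044 (edgeR adjusted p = 0.926 and 0.785). The mitochondrial Prdx3 and the secretory-pathway Prdx4 had at most 65 counts in any library and overlapping groups (edgeR adjusted p = 0.809 and 0.333).

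Prxl2a (ENSMUSG00000021792, minus strand of chromosome 14, 40993740 to 41013788), which encodes a peroxiredoxin-like protein of less settled function, moved against the classical genes. It was counted at 262, 237 and 244 CPM in control and at 97.2, 97.9 and 95.5 CPM in OE-labelled libraries. The 3 OE-labelled values were nearly equal and all far under control, and the log2 fold change was -1.35 with an SE of 0.11 (edgeR adjusted p = 1.04e-05). It was the 1 member that changed at least 2-fold, as 5.38% of all tested genes did with an adjusted p below 0.05.

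Glutathione peroxidases reduce peroxides with glutathione. Gpx2, a selenoprotein typical of the gut epithelium and a known target of both NRF2 and WNT signalling, was counted at 295, 268 and 255 CPM in control and at 518, 460.1 and 463 CPM in OE-labelled libraries, and rose by 0.82 (SE = 0.10; edgeR adjusted p = 0.000257) with no overlap. Of the 50-base words near its 3′ end, 10.4% also occur in a pseudogene, Gpx2-ps1. Gpx2 overlaps 1 gene on the opposite strand. Gpx1, the widely expressed cytosolic enzyme, had overlapping groups (0.08, 95% interval -0.20 to 0.35, edgeR adjusted p = 0.688). Gpx4, which protects membrane lipids and thereby restrains ferroptosis, had 38 to 54 counts in control and 52 to 98 in OE-labelled libraries, with a log2 fold change of 0.64 that did not pass (edgeR adjusted p = 0.0686). It passed in 3 of 19 other fits, those without OE-labelled replicate 1 (0.82, edgeR adjusted p = 0.00267), without a filter on low counts (0.60, edgeR adjusted p = 0.0254) and with the replicate block (0.62, edgeR adjusted p = 0.0347). Gpx4 was at 0.34 under the GC offset (edgeR adjusted p = 0.375) and at 0.38 under that for exonic length (edgeR adjusted p = 0.272). Because 64.7% of the 50-base words near the 3′ end of Gpx4 occur in 2 other genes, its level is uncertain.

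Glutathione transferases couple glutathione to electrophiles. Among the transferase members 12.5% rose, where 16.5% of all tested genes did. Of the 8 members, Gstm1 alone rose, from 531, 537 and 494 CPM in control to 1156, 899.7 and 840.1 CPM in OE-labelled libraries, by 0.89 on the log2 scale with an SE of 0.12 (edgeR adjusted p = 0.000361). The lowest OE-labelled library exceeded the highest control library, although 24.1% of its 50-base words near the 3′ end occur in other genes, Gstm3 among them. The other 7 did not pass (edgeR adjusted p from 0.0734 to 0.936), Gsta4, Gsto1 and Mgst2 lying above control in every OE-labelled library. Mgst1, a membrane-bound transferase, was counted at 117, 152 and 140.1 CPM and at 117, 226 and 272 CPM; its log2 fold change was 0.59 (edgeR adjusted p = 0.0734). It passed in 5 of 19 other fits, among them the fit without OE-labelled replicate 1 (0.82, edgeR adjusted p = 2.83e-05), and was at 0.34 without OE-labelled replicate 3 (edgeR adjusted p = 0.232) and at 0.35 with the exonic length offset (edgeR adjusted p = 0.28). Gstp1 shares 43.6% of its 50-base words with other genes, so its counts are uncertain.

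Superoxide dismutases turn superoxide into hydrogen peroxide, and catalase breaks hydrogen peroxide down in peroxisomes. Cat was counted at 77.9, 83 and 65.4 CPM in control and at 137, 126 and 131 CPM in OE-labelled libraries, and rose by 0.80 (SE = 0.12; edgeR adjusted p = 0.000675) with wholly separate groups. Sod1, the cytosolic dismutase, was counted at 855, 842 and 802 CPM and at 1228, 1064 and 966 CPM. It rose by 0.38 (SE = 0.11; edgeR adjusted p = 0.0162), a call that was lost without any single control library or without OE-labelled replicate 2 (0.36 to 0.40, edgeR adjusted p from 0.059 to 0.0945); without OE-labelled replicate 1 it passed at 0.23 (edgeR adjusted p = 0.0359). With the exonic length offset Sod1 was at 0.29 (edgeR adjusted p = 0.0718), and 16.8% of its 50-base words near the 3′ end occur in another gene. Sod1 overlaps 1 gene on the opposite strand. Sod2, the mitochondrial dismutase, lay above control in every OE-labelled library at 0.33 but did not pass (edgeR adjusted p = 0.0872). It passed in 4 of 19 other fits, among them those without OE-labelled replicate 1 (0.38, edgeR adjusted p = 0.0199) and under the GC offset (0.52, edgeR adjusted p = 0.0116), and was at 0.20 without OE-labelled replicate 2 (edgeR adjusted p = 0.325).

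NADPH supplies the electrons for both carriers. Of the 4 pentose phosphate genes, 3 rose and Tkt, a transketolase, did not pass (0.09, 95% interval -0.12 to 0.29, edgeR adjusted p = 0.528). Over all tested genes 16.5% rose. G6pdx, which encodes the enzyme at the entry to the pathway, was counted at 47.5, 36.1 and 37.3 CPM in control and at 74.5, 69.2 and 79.5 CPM in OE-labelled libraries, and rose by 0.88 (SE = 0.14; edgeR adjusted p = 0.000941). Pgd, the second NADPH-forming enzyme, was counted at 205, 189.5 and 217 CPM and at 289, 354 and 298 CPM, and rose by 0.62 (SE = 0.11; edgeR adjusted p = 0.00186). The groups of both genes were separate.

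Taldo1, a transaldolase of the non-oxidative branch, was counted at 274, 285 and 289 CPM in control and at 498, 431 and 424 CPM in OE-labelled libraries. It too showed no overlap, and rose by 0.67 (SE = 0.10; edgeR adjusted p = 0.000664), or by 0.45 with the exonic length offset (edgeR adjusted p = 0.0105). Me1, malic enzyme, another cytosolic source of NADPH, lay below control in all OE-labelled libraries without passing (-0.19, edgeR adjusted p = 0.184). On the opposite strand G6pdx overlaps 1 gene, and 26.1% of the 50-base words near the 3′ end of Me1 occur in 2 other genes.

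The spread among the OE-labelled libraries differed between members. For 6 of the 40 (15%), the highest OE-labelled library exceeded the lowest by more than 2-fold, as it did for 11.7% of all tested genes. These were Gsr (2.57-fold), Txn1 (2.98-fold), Prdx3 (2.34-fold), Gstp1 (2.86-fold), Mgst1 (2.33-fold) and Mgst3 (6-fold), named here after their values were seen. OE-labelled replicate 1 was the lowest library for all 6, and for 67.5% of the tested genes with such a spread. Among the control libraries the same 6 genes spread by 1.05-fold to 1.4-fold. For most members the spread was small, with a median of 1.23-fold among OE-labelled and 1.12-fold among control libraries.

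**Figure D3:**
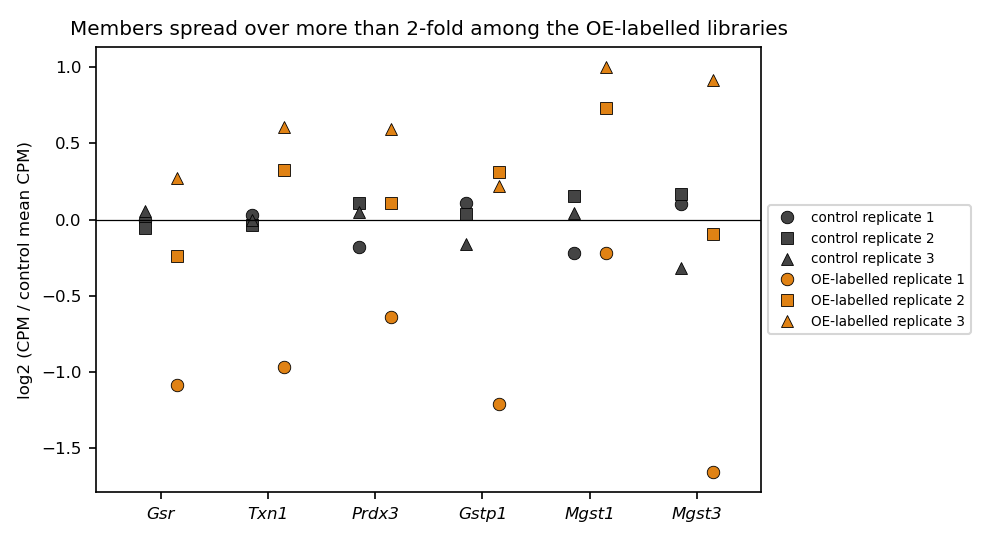
Log2 ratio of each library's CPM to the control mean for the 6 members that spread over more than 2-fold among the OE-labelled libraries (circle, square and triangle for replicates 1, 2 and 3; dark for control, orange for OE-labelled). For each gene OE-labelled replicate 1 is the lowest OE-labelled library, while the control libraries lie close to 0.

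Promoters were then searched for the core of the antioxidant response element, the sequence that NRF2 binds with small MAF proteins. The core searched was TGACNNNGC, on both strands, from 250 bases before to 50 bases after each start in RefSeq's GRCm38.p6 promoters, of which 35 members had at least 1. A match was found for 12 of the 35 members (34.3%) and for 14% of the 27025 genes with a promoter. Among members with a promoter, the core was present in 4 of 12 that rose (Prdx1, Sod1, G6pdx and Pgd), in 3 of 3 that fell (Gclm, Txnrd1 and Prxl2a) and in 5 of 20 that did not pass (Nfe2l2, Srxn1, Gstm5, Mgst1 and Me1). In Pgd and Srxn1 the match lay after the start, from base 4 and base 29. The windows that held the match in Pgd, G6pdx, Txnrd1 and Prxl2a lay wholly inside the annotated gene. The stricter TGACTCAGC, which also matches the longer core and reads GCTGAGTCA on the other strand, was found for 2 members, Prdx1 and Me1 (5.7% of 35, against 0.5% of all genes). The stretches upstream of the start are shown for 3 members that rose and 3 that fell, since genes of both directions hold the core; they run 5′ to 3′ on the gene's own strand, capitals mark the match, and in each the match lies on the opposite strand, so that the core appears in reverse complement.
Prdx1 (rose; chr4:116685440-116685500, plus strand): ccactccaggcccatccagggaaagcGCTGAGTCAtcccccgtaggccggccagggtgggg
G6pdx (rose; chrX:74428903-74428963, minus strand): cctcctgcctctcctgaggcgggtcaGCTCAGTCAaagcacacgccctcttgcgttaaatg
Sod1 (rose; chr16:90220680-90220740, plus strand): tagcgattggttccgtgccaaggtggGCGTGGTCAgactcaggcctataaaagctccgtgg
Gclm (fell; chr3:122245397-122245457, plus strand): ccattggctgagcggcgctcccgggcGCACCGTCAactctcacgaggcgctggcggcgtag
Txnrd1 (fell; chr10:82859088-82859148, plus strand): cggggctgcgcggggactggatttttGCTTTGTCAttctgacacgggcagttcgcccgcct
Prxl2a (fell; chr14:41008257-41008317, minus strand): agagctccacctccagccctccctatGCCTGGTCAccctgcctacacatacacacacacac
The first base of the match lay 133 bases before the start in Prdx1, 57 in G6pdx, 56 in Sod1, 134 in Gclm, 92 in Txnrd1 and, counted from the downstream of its 2 starts that hold the match, 46 in Prxl2a. A match is a description of these letters, and known elements that lie farther from the start are outside the window.

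A further 129 genes of the pathway, listed by role, were examined in the same fit. Of these 116 were tested, 36 rose (31%) and 16 fell (13.8%), where 16.5% and 12.7% of all tested genes rose and fell, and their median log2 fold change was 0.25. Outside the members, genes of glutathione use, turnover and export rose in 5 of 12 and fell in 2 of 12 tested cases. Chac1, which degrades glutathione, went from 36.1 ± 11.4 CPM up to 92.9 ± 5.97 CPM (SD, n = 3), with a log2 fold change of 1.36 (edgeR adjusted p = 0.000324), and Slc3a2, the partner subunit of the cystine importer, went up from 538 ± 40.8 CPM to 885 ± 78.2 CPM (mean ± SD, n = 3), by 0.72 on the log2 scale (edgeR adjusted p = 0.000516). Slc3a2 thus rose while Slc7a11 lay lower in all OE-labelled libraries. Abcc1, which exports glutathione conjugates, fell (-0.72, edgeR adjusted p = 0.00234). The other gene of this list that fell was Chac2, from 9.724 ± 1.774 CPM down to 4.2 ± 1.203 CPM (mean ± SD, n = 3; edgeR adjusted p = 0.0139). It rested on 7 to 25 counts per library, and its groups did not overlap. Chac1 and Chac2 thus moved in opposite directions. Oplah, Glo1 and Lancl1 also rose. These 3 and Chac2 were named after their values were seen.

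Among 14 tested partners and regulators of NRF2, 4 rose and 4 fell, where 16.5% of all tested genes rose and 12.7% fell. Maff, a small MAF protein, rose by 0.55 (edgeR adjusted p = 0.00563) and Rbx1, a subunit of the ligase that KEAP1 serves, by 0.58 (edgeR adjusted p = 0.00488), whereas Gsk3b, a kinase that marks NRF2 for another ligase, fell by 0.62 (edgeR adjusted p = 0.00127). The other 3 that fell, named after their values were seen, were Mafg, a more abundant small MAF gene (-0.42, edgeR adjusted p = 0.0138), Bach1, a repressor that competes with NRF2 for its elements (-0.66, edgeR adjusted p = 0.0335), and Nfe2l1, which encodes the related factor NRF1 (-0.41, edgeR adjusted p = 0.0317). Mafk, the third small MAF gene, did not pass (0.19, edgeR adjusted p = 0.546). Dpp3 (0.44, edgeR adjusted p = 0.0326) and Sqstm1 (0.29, edgeR adjusted p = 0.0362) also rose, and were likewise named after their values were seen. Sqstm1 overlaps 1 gene on the opposite strand. Mafg overlaps Sirt7 on its own strand. Of 28 tested NRF2 target and detoxification genes, 9 rose and 5 fell. Fth1, the ferritin heavy chain that stores iron, went from 1334 ± 39.8 CPM up to 2561 ± 134 CPM (mean ± SD, n = 3), by 0.94 on the log2 scale (edgeR adjusted p = 4.2e-05), Ptgr1, a reductase of reactive aldehydes and ketones, by 0.81 (edgeR adjusted p = 0.00047) and Akr1a1, an aldehyde reductase, by 0.62 (edgeR adjusted p = 0.00104). Ftl1 (0.50), Blvrb (0.47), Ugt1a1 (0.43), Ephx1 (0.39), Akr1b8 (0.38) and Ugt1a6a (0.35) rose as well, with edgeR adjusted p from 0.00134 to 0.0484. They too were named after their values were seen. Shared 50-base words near the 3′ end make up 73.9% for Ftl1, 100% for Ugt1a1 and 66.7% for Ugt1a6a, so these 3 levels are uncertain. The 5 that fell, also named after their values were seen, were Akr1c12 (-1.06), Abcg2 (-1.03), Blvra (-0.94), Aldh3a1 (-0.62) and Por (-0.47), with edgeR adjusted p from 0.00365 to 0.0405. Abcg2 encodes an exporter of foreign compounds, Blvra the reductase of biliverdin, Aldh3a1 an aldehyde dehydrogenase and Por the electron donor of cytochrome P450 enzymes. The estimate for Abcg2 rested on 5 to 17 counts per library (95% interval -1.77 to -0.28). Near the 3′ end of Akr1c12, 14.5% of the 50-base words occur in Akr1c13, and Por overlaps 2 genes on the opposite strand.

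Other glutathione peroxidase and transferase genes rose in 6 of 14 and fell in 1 of 14 tested cases. Over all tested genes 16.5% rose and 12.7% fell. Gsta3 went from 575 ± 12.3 CPM up to 999 ± 93.5 CPM (mean ± SD, n = 3), by 0.80 on the log2 scale (edgeR adjusted p = 0.000214), while the decrease of Gsta1 (-0.94, edgeR adjusted p = 0.000307) is uncertain because 89.8% of its 50-base words near the 3′ end occur in other genes. NADPH genes outside the members rose in 5 of 14 and fell in 1 of 14. Idh2 and Idh1, the mitochondrial and cytosolic NADP-dependent isocitrate dehydrogenases, rose by 1.16 (edgeR adjusted p = 0.000124) and 0.77 (edgeR adjusted p = 0.000404). Glutaredoxin, thioredoxin-like and methionine sulfoxide reductase genes rose in 4 of 17 tested cases and did not pass in the other 13, and oxidant sources with the remaining superoxide dismutase and selenoprotein genes rose in 3 and fell in 3 of 17. Park7, an oxidant sensor, rose by 0.92 (edgeR adjusted p = 0.000405), and Selenos, a selenoprotein of the endoplasmic reticulum, fell by 0.77 (edgeR adjusted p = 0.001).

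**Figure D4:**
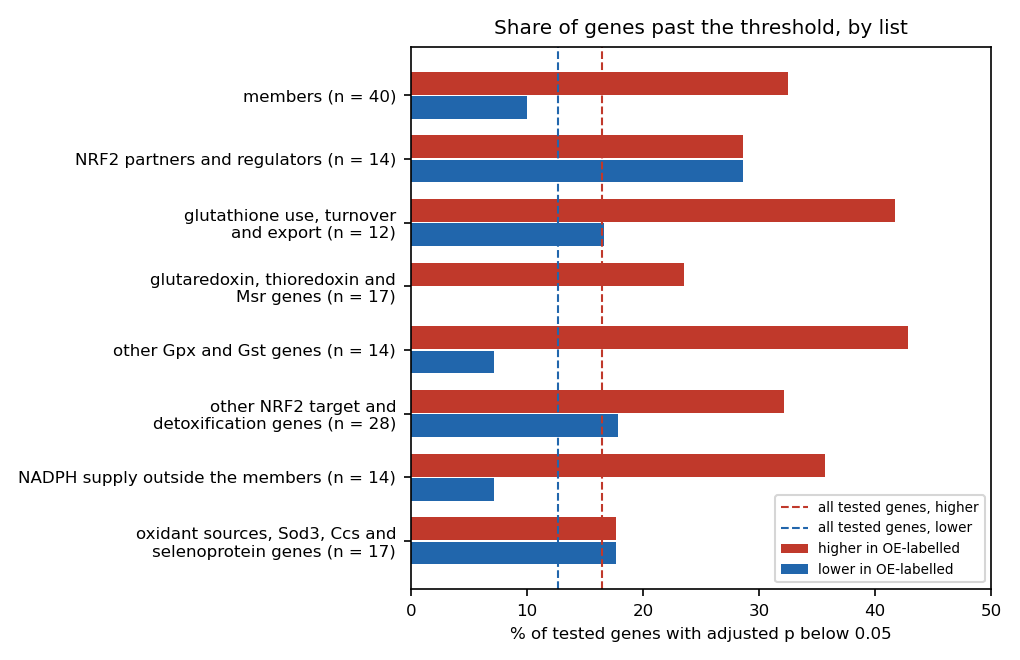
Percentage of tested genes that rose (red) or fell (blue) at an adjusted p below 0.05, for the 40 members and 7 further lists of the pathway, with n the genes tested. Dashed lines give the share over all 10687 tested genes, 16.5% higher and 12.7% lower.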

How the data were processed

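Libraries of total RNA from 6 Apc-knockout organoid samples were made with a 3′ mRNA kit, per the labels' protocols. The deposited table holds estimated counts for each gene without normalization, and the submitters' processing notes name STAR, HTSeq and the build mm10 (GRCm38). Settings for strand, multi-mapping reads and molecular identifiers are not given in the sources used here. Floors cover counting error only, whereas the 95% intervals of log2 fold changes come from the fit and include the spread between libraries. Of values above 0, 3.1% were fractional (0 in the members), although whole counts had been planned for, and all were rounded. Groups and replicate numbers came from sample titles.

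Counts were filtered with filterByExpr, scaled by TMM and fitted without covariates in edgeR 4.0.16 (R 4.3.3; glmQLFit and glmQLFTest); standard errors are the estimate over the square root of F. The fit was tested on simulated counts that gave both groups the same spread, so the unequal spread of the real groups was not covered. Alternatives were DESeq2 1.42.0 size factors and test, limma-voom (limma 3.58.1), library totals, other filters, unrounded values, equal depth, removal of mitochondrial genes and CT010467.1, offsets (loess, span 0.5) for GC content and exonic length, the replicate block, each library left out, and a threshold of 0.01. Annotation and 3′ sequence sharing came from GENCODE M21, matched by gene identifier (99.5% found). Values per library are printed for members past the threshold, for 10 fixed pathway genes and for Gsr, Txn1 and Mgst1. Genes of the further lists are given by group mean and SD or by fold change. Up to 3 of each further list had been planned, and others were added after their values were seen. The members and lists were chosen with earlier results of these data known.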

Additional observations from a re-analysis of the deposited data

How the results depend on the processing

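Every member that rose or fell kept its direction in all 19 other fits. Of 247 values of the 13 that rose, 233 passed and 14 (Gss, Prdx1 and Sod1) did not; all 76 values of the 4 that fell passed. Of 436 values of the 23 others, 25 passed in their own direction (Nfe2l2, Slc7a11, Gsr, Txn1, Prdx5, Gpx4, Mgst1 and Sod2). Over all 20 alternatives 10 to 17 members rose and 4 to 6 fell. The background moved as well. Without control replicate 3, 10 members rose and 4 fell, where 15.9% of all tested genes passed. Without OE-labelled replicate 3, 14 members rose and 6 fell, where 32.6% passed. These were the lowest and highest shares of all tested genes at the 0.05 threshold. Increases made up 47.9% (without mitochondrial genes and CT010467.1) to 63.8% (library totals) of all genes called. The number of all genes called went from 3118 to 1578 at an adjusted p below 0.01, and ran from 1748 to 3532 with single libraries left out, lowest without control replicate 3, then 2 (1837) and 1 (1893). Of the further genes, 23 rose with DESeq2's test, with the length offset and at the 0.01 threshold, where 7 fell; with single libraries left out 23 to 39 rose and 8 to 19 fell.

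Estimates near 0 changed sign without passing. With the GC offset Hmox1 was at -0.093, Txnrd2 at -0.115, Srxn1 at -0.094, Gpx1 at -0.193, Gsto1 at -0.015, Mgst3 at -0.044 and Tkt at -0.122. With the replicate block and GC offset these were -0.106, -0.1, -0.093, -0.207, -0.014, -0.163 and -0.123. With the length offset Nqo1 was at -0.193, Hmox1 at -0.16, Txn1 at -0.182, Srxn1 at -0.09, Prdx3 at -0.173, Gpx1 at -0.201, Gsta4 at -0.082, Gsto1 at -0.119 and Mgst3 at -0.249. With limma-voom Txn1 was at -0.012 and Mgst3 at -0.269, and Mgst3 was at -0.002 without mitochondrial genes and CT010467.1. Single libraries left out gave ranges of Nqo1 -0.132 to 0.241, Hmox1 -0.089 to 0.192, Txn1 -0.175 to 0.417, Txnrd2 -0.128 to 0.437, Srxn1 -0.027 to 0.159, Prdx3 -0.208 to 0.308, Gpx1 -0.094 to 0.196, Gstp1 -0.364 to 0.213 and Mgst3 -0.657 to 0.431. The cause was not tested.

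The labels do not say that the replicate numbers pair the libraries, so the numbers were not taken as pairs. Equally numbered libraries correlated in their deviations from the group means at 0.1, 0.02 and 0.07. Across all pairings of a control with an OE-labelled library the values ran from -0.11 to 0.1. With 3 libraries per group these values depend on each other, so they cannot exclude pairing. With the replicate block 15 members rose and 5 fell, and 3112 genes passed in all; Slc7a11 (-0.33, edgeR adjusted p = 0.0491), Gpx4 (0.62, edgeR adjusted p = 0.0347) and Mgst1 (0.53, edgeR adjusted p = 0.0244) then passed, while Mgst3 was at -0.064. Nqo1, Txnrd2, Prdx3, Prdx4, Gstm5, Mgst3 and Gpx4 had under 100 counts in every library. The part of depth in their intervals was not tested.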
